A study of Mus musculus with 6 samples.

Results

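The 31 genes described here mark the oligodendrocyte lineage, from the precursor cell to the cell that wraps axons in myelin. They were taken from the deposited table by gene symbol, and 31 of 31 were found among its 23361 symbols. The 9 precursor-stage genes were Pdgfra, Cspg4, Sox10, Olig1, Olig2, Nkx2-2, Gpr17, Bcas1 and Enpp6. The 21 myelin-stage genes were Mbp, Mog, Mag, Cnp, Mobp, Cldn11, Ermn, Opalin, Gjb1, Mal, Tspan2, Myrf, Nkx6-2, Ugt8a, Fa2h, Aspa, Trf, Qdpr, Ndrg1, Gpr37 and Plekhb1. Lingo1, an inhibitor of myelination that neurons also express, was kept apart from both groups. RNA of whole hippocampus was sequenced from Tet1Δe4-/- mice, which lack exon 4 of Tet1 on both alleles, and from Tet1+/+ mice, called Tet1-deficient and wild-type below. The product of Tet1 is an enzyme that oxidises methylated cytosine. Mice of both genotypes had received electroconvulsive shock (18 mA at 100 Hz, in pulses of 0.2 ms, for 1.15 seconds). This is an electric current applied at the ears that evokes a tonic-clonic seizure. Their hippocampi were taken 1.5 to 2 hours later. There were 3 libraries per genotype, 1 per mouse by the design text. The labels name neither strain nor age, and no unshocked hippocampus was analysed here.

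Oligodendrocyte precursor cells persist in the adult brain, where they carry the growth factor receptor Pdgfra and the proteoglycan Cspg4 (NG2) and divide or differentiate. Differentiation passes through a committed stage marked by Gpr17, Bcas1 and Enpp6 and is driven by the transcription factors Olig2, Sox10, Nkx2-2 and Myrf. Mature cells then make large amounts of myelin protein and of galactolipid, which form the compact sheath around axons, and adult hippocampus holds myelinated fibres in the alveus, the fimbria and the layers of its pyramidal cells.

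The values are FPKM, fragments scaled by transcript length and by the mapped fragments of the library. Levels are compared between genes on this scale, which does not remove the trend on GC content given below. The read depth behind the values is unknown. FPKM sums ran from 371014 to 390042 per library. Tet1 itself ranged from 0.718 to 0.977 FPKM in wild-type and from 0.638 to 0.740 FPKM in Tet1-deficient hippocampus, so the groups overlapped (exact two-sided permutation p = 0.2, smallest possible 0.1), and a gene-level value does not check the loss of 1 exon. Replicate 1 of each genotype stood apart from the other 4 libraries on the first principal component of the 12533 genes tested, at −0.56 and −0.59 against 0.22 to 0.33, and this component held 53.3% of the variance. The summed FPKM of listed markers ran over the 6 libraries from 1116 to 1322 FPKM for 8 astrocyte genes, 122 to 139 FPKM for 7 microglial genes, 2832 to 3096 FPKM for 7 neuronal genes and 22.2 to 46.6 FPKM for 5 endothelial genes. Over 5 meningeal fibroblast genes it ran from 25.8 to 48.1 FPKM. All 5 endothelial and all 5 fibroblast genes were lower on average in Tet1-deficient hippocampus (median log2 differences −0.22 and −0.56), and 0 genes of these lists passed the test described below. Over 5 genes of choroid plexus and ependyma it ran from 9.59 to 304 FPKM, with Ttr at 294 FPKM in wild-type replicate 3 and 187 FPKM in Tet1-deficient replicate 2. The 4 Schwann cell genes, markers of myelin in peripheral nerve, summed to 0.476 to 0.803 FPKM, and Pmp2, a lipid-binding protein gene of peripheral myelin, was at most 0.0523 FPKM.

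The members differ widely in the base composition of their transcripts, which is shown here because the values below are set beside it. G and C made up from 38.0% of the Ermn and Ugt8a transcripts to 65.7% of the Nkx6-2 transcript (longest protein-coding transcript in GENCODE mouse release M21, build mm10, found for 31 of 31 members). Below are 120 coding bases each from Mag and Sox10, of high GC content, and from Aspa and Ugt8a, of low GC content, with every G and C in capitals. In each case it is the first in-frame stretch whose GC content is closest to that of the whole coding sequence. All 4 genes lie on the minus strand.
Mag: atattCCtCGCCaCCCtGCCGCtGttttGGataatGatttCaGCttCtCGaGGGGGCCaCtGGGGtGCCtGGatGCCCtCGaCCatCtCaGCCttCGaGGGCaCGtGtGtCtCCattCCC
Sox10: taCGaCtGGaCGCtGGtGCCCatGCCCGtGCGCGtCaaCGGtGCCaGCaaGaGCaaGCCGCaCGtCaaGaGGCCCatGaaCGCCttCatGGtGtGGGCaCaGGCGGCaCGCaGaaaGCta
Aspa: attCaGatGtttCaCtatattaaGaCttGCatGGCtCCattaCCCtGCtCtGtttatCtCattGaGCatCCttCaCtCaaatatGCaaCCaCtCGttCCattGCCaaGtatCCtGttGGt
Ugt8a: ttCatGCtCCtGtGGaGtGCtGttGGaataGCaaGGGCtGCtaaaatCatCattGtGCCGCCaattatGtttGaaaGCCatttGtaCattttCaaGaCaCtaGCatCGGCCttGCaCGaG
These are coding bases 4 to 123 of Mag, in exons 4 to 5 at chr7:30911693-30911933, coding bases 247 to 366 of Sox10, in exon 3 at chr15:79163351-79163470, coding bases 406 to 525 of Aspa, in exons 3 to 5 at chr11:73313616-73322109 and coding bases 22 to 141 of Ugt8a, in exon 1 at chr3:125915319-125915438, where a span over several exons includes the introns between them. The stretch held 70 G or C bases in Mag and 76 in Sox10, against 49 in Aspa and 54 in Ugt8a. The whole coding sequence of Ugt8a had 44.6% G and C, above the 38.0% of its transcript.

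Promoters were searched as a description of the members. RefSeq promoter windows (build GRCm38) were matched for 22 of 31 members, in 30 windows, and the 250 bases before each start were searched on both strands. The E-box CAGNTG, a motif of basic helix-loop-helix factors such as Olig2, stood in 15 of 30 member windows and in 44.8% of all 32851 windows. CTGGCAC or CTGGTAC, motifs of Myrf, stood in 4 windows (13.3%, against 5.93% of all), which belong to Cnp, Mag and Mog, and of the windows of Mag the first and second overlap. AACAAT, a motif of Sox factors, stood in 4 windows (13.3%, against 9.42% of all). The windows of the adhesion protein gene Mag and the surface glycoprotein gene Mog are shown with the Myrf motif in capitals, read on the gene's strand. They were chosen as myelin genes that hold the motif but, as given below, spread differently over the libraries.
Mag: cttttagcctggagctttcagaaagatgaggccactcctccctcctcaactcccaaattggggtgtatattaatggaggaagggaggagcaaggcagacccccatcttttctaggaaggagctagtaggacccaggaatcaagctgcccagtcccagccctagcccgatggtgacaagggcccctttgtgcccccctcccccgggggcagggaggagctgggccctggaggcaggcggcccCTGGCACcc
Mog: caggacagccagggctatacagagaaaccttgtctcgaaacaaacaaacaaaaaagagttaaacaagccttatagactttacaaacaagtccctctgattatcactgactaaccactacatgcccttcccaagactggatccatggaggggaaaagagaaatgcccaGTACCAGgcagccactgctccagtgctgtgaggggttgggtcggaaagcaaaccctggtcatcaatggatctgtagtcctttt
The Mag window is chr7:30914923-30915172 and the Mog window chr17:37023399-37023648, both on the minus strand.

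Levels of the members ran from the top of the table to below the filter used for the tests. Mbp, which encodes myelin basic protein, the adhesive of compact myelin, had the highest mean of all 23361 genes, 1931 FPKM, and ranked first in 4 libraries, at rank 2 in Tet1-deficient replicate 2 and at rank 5 in Tet1-deficient replicate 1. It alone gave 48.3% to 53.5% of the summed FPKM of the 31 members, which in turn made up 0.822% to 1.13% of the summed FPKM of a library. After Mbp came Mobp (285 FPKM on average), another basic protein of compact myelin, and Cnp (177 FPKM), an enzyme of the cytoplasmic channels of the sheath. Plekhb1, Cldn11, Lingo1, Mal and Qdpr followed between 159 and 120.4 FPKM. Among precursor-stage genes Olig1 was highest (69.9 FPKM), then Bcas1 (53.4 FPKM) and Gpr17 (24.1 FPKM), while Pdgfra had 16.6 FPKM and Nkx2-2 0.918 FPKM. In this order the ranges of Mbp and Mobp, of Mobp and Cnp, and of Bcas1 and Gpr17 did not overlap over the libraries, while those of Plekhb1 and Cldn11 and of Pdgfra and Olig2 did.

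**Figure D1:**
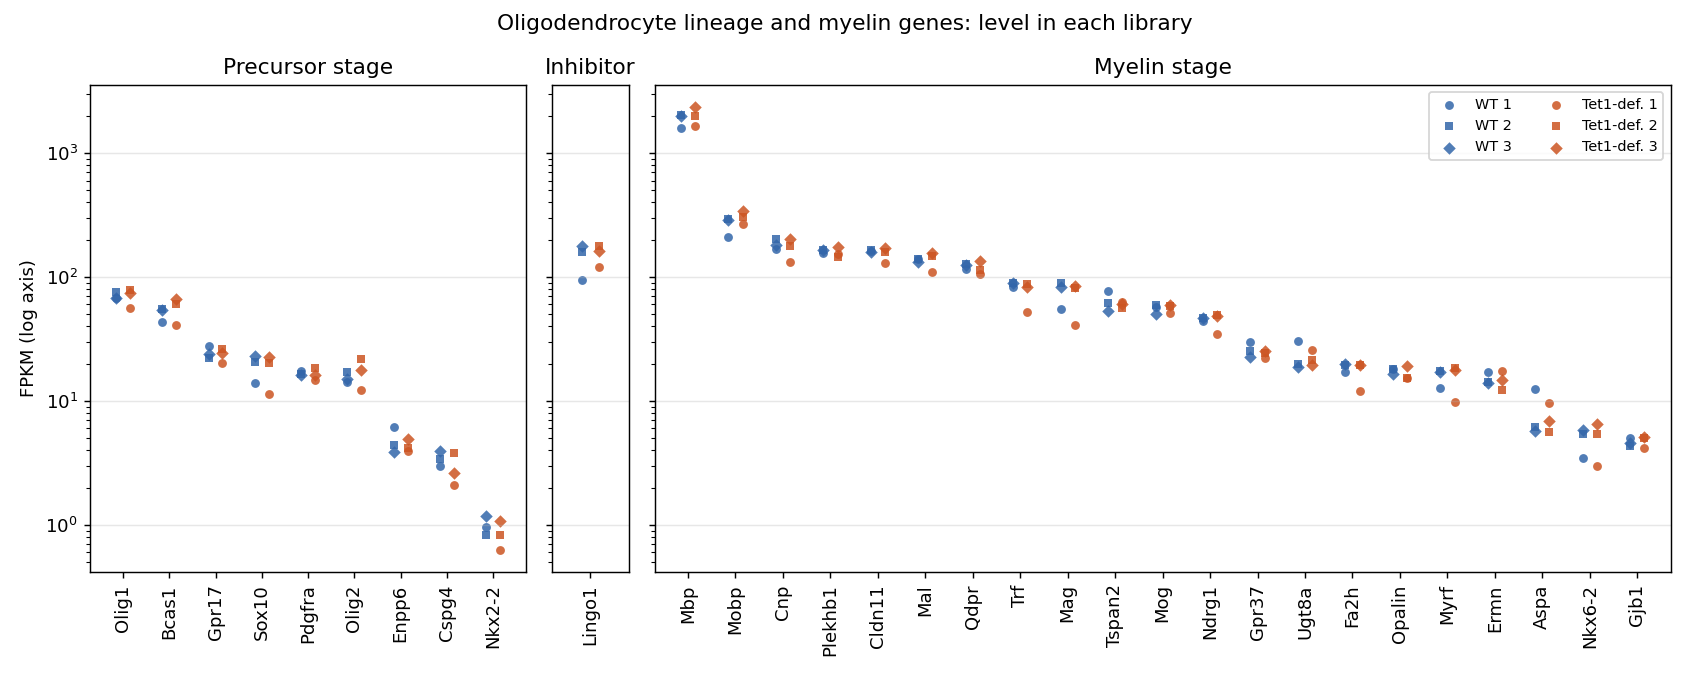
FPKM of the 31 members (log axis) in each of the 6 libraries, 1 point per library, blue for wild-type (WT) and orange for Tet1-deficient, with precursor-stage genes, Lingo1 and myelin-stage genes in separate panels. The points of both genotypes overlap for every member, and for Mag, Sox10, Myrf and Nkx6-2 the circles (replicate 1 of each genotype) lie below the other 4 points.

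Between the genotypes, no member had a difference past the threshold. Each difference was tested with limma on log2(FPKM + 1), adjusted over the 12533 genes that averaged 1 FPKM or more, a scale that understates the change of low genes. Of the 30 members tested, 0 had an adjusted p under 0.05, where 4 of 12533 genes did (0.0319%), and each member had an adjusted p of 1. Unadjusted, 0 members had p under 0.05, against 1.36% of all genes tested. Likewise the libraries of the genotypes overlapped for 31 of 31 members, where 4.13% of all genes tested had groups that did not overlap (1.91% higher and 2.21% lower in Tet1-deficient hippocampus). Nkx2-2, with a mean under 1 FPKM, did not pass the filter, and its difference was estimated with no filter, over every gene above 0.

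The precursor receptors had overlapping values in both genotypes. Pdgfra, the receptor through which platelet-derived growth factor keeps precursors dividing, measured 17.3, 16.6 and 16.2 FPKM (wild-type replicates 1 to 3) against 14.7, 18.5 and 16.1 FPKM (Tet1-deficient replicates 1 to 3). The highest and the lowest value both belonged to Tet1-deficient mice, and the log2 difference, Tet1-deficient minus wild-type here and below, was −0.03 (95% interval −0.28 to 0.22). Cspg4, the NG2 proteoglycan of the precursor surface, measured 3.005, 3.38 and 3.93 FPKM (wild-type replicates 1 to 3) against 2.104, 3.82 and 2.62 FPKM (Tet1-deficient replicates 1 to 3). Its Tet1-deficient values lay on both sides of the wild-type replicates 1 and 2 (log2 difference −0.22, 95% interval −0.64 to 0.19). Leaving out Tet1-deficient replicate 2 gave −0.40 (unadjusted p 0.0292, adjusted p 1, limma), and leaving out Tet1-deficient replicate 1 gave −0.082. Cspg4 was highest in wild-type replicate 3 and Tet1-deficient replicate 2. These libraries also had the highest summed FPKM of the 5 endothelial genes (46.6 and 46.5, at most 31.9 elsewhere). Whether vascular cells contributed to Cspg4 was not tested.

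The transcription factors of the lineage overlapped between the genotypes too. Sox10, a factor that acts at every stage of the lineage and switches on myelin genes, measured 13.9, 20.4 and 22.9 FPKM (wild-type replicates 1 to 3) against 11.5, 20.3 and 22.6 FPKM (Tet1-deficient replicates 1 to 3). Replicate 1 was the lowest of its genotype on both sides, at 13.9 and 11.5 FPKM against at least 20.3 FPKM elsewhere, and the difference was −0.10 (95% interval −0.76 to 0.57). Olig2, a basic helix-loop-helix factor that specifies the lineage, measured 14.1, 17.2 and 15.05 FPKM (wild-type replicates 1 to 3) against 12.2, 21.96 and 17.8 FPKM (Tet1-deficient replicates 1 to 3). Its highest and lowest values were both Tet1-deficient (log2 difference 0.12, 95% interval −0.36 to 0.60). Leaving out Tet1-deficient replicate 1 gave Olig2 a difference of 0.34 (unadjusted p 0.0439, adjusted p 0.999, limma), and leaving out Tet1-deficient replicate 2 gave −0.059. Olig1, its neighbour on chromosome 16 and a promoter of differentiation, ranged over 56.1 to 79.04 FPKM (log2 difference −0.01). Nkx2-2, a homeobox factor that times differentiation, ranged over 0.631 to 1.19 FPKM (log2 difference −0.11).

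Genes of committed precursors and newly formed oligodendrocytes also overlapped. Gpr17, a G protein-coupled receptor that marks the committed stage, measured 27.6, 22.4 and 23.9 FPKM (wild-type replicates 1 to 3) against 20.2, 26.4 and 24.2 FPKM (Tet1-deficient replicates 1 to 3) (log2 difference −0.06, 95% interval −0.37 to 0.25). Bcas1, a marker of cells that begin to myelinate, measured 43.2, 54.9 and 54.1 FPKM (wild-type replicates 1 to 3) against 41.1, 60.7 and 66.2 FPKM (Tet1-deficient replicates 1 to 3). Replicates 2 and 3 of the Tet1-deficient mice were the highest of the 6 and replicate 1 the lowest, so the groups overlapped (log2 difference 0.12, 95% interval −0.34 to 0.58). Enpp6, a choline phosphodiesterase of newly forming oligodendrocytes, measured 6.202, 4.42 and 3.84 FPKM (wild-type replicates 1 to 3) against 3.95, 4.19 and 4.96 FPKM (Tet1-deficient replicates 1 to 3). There wild-type replicate 1 was the highest library (log2 difference −0.10, 95% interval −0.49 to 0.29). The median log2 difference over the 8 tested precursor-stage genes was −0.044, with 2 higher and 6 lower, beside 0.005 over all genes tested. In bulk tissue fewer cells of a type and less RNA per cell cannot be told apart.

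Structural proteins of myelin had overlapping levels in the 2 genotypes. Mbp measured 1592, 2016 and 1990.4 FPKM (wild-type replicates 1 to 3) against 1652, 1985 and 2349.8 FPKM (Tet1-deficient replicates 1 to 3), and both replicates 1 were lower than the other 4 libraries (log2 difference 0.09, 95% interval −0.28 to 0.46). Mog, a surface glycoprotein of the outermost lamella, measured 57.7, 59.4 and 50.3 FPKM (wild-type replicates 1 to 3) against 51.5, 58.3 and 59.7 FPKM (Tet1-deficient replicates 1 to 3). It was among the steadiest members, its highest library being 1.19 times its lowest, and its difference was 0.02 (95% interval −0.23 to 0.27). Mag, which holds the sheath to the axon, measured 55.3, 89.8 and 82.9 FPKM (wild-type replicates 1 to 3) against 40.7, 80.98 and 83.8 FPKM (Tet1-deficient replicates 1 to 3). Here replicate 1 of each genotype lay far under the other 4 libraries, the highest library was 2.21 times the lowest, and the difference of −0.19 had the widest interval of the members (−0.93 to 0.55). Cnp measured 169.6, 203 and 179.7 FPKM (wild-type replicates 1 to 3) against 132, 178 and 202 FPKM (Tet1-deficient replicates 1 to 3), with Tet1-deficient replicate 1 the lowest (log2 difference −0.13, 95% interval −0.53 to 0.27).

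The other membrane and junction genes lay between these cases. Mobp had the smallest unadjusted p of the 30 tested members (0.232 in limma). It measured 212, 295 and 287 FPKM (wild-type replicates 1 to 3) against 266, 304 and 343 FPKM (Tet1-deficient replicates 1 to 3), with wild-type replicate 1 lowest and Tet1-deficient replicate 3 highest (log2 difference 0.21, 95% interval −0.17 to 0.59). The Mobp difference was 0.056 on leaving out wild-type replicate 1 and 0.119 on leaving out Tet1-deficient replicate 3. Cldn11, the claudin of myelin tight junctions, ranged over 129 to 173 FPKM, and Tspan2, a tetraspanin, over 52.8 to 76.6 FPKM. Opalin, a transmembrane protein of the sheath, ranged over 15.2 to 18.96 FPKM, and Ermn, a cytoskeletal protein of mature cells, over 12.3 to 17.5 FPKM. Mal, a carrier of myelin proteolipids, measured 139.7, 139.7 and 131 FPKM (wild-type replicates 1 to 3) against 109.8, 148 and 156 FPKM (Tet1-deficient replicates 1 to 3), with Tet1-deficient replicate 1 lowest. Gjb1, which encodes a gap junction protein of the connexin family, measured 4.98, 4.302 and 4.599 FPKM (wild-type replicates 1 to 3) against 4.17, 5.04 and 5.09 FPKM (Tet1-deficient replicates 1 to 3), with the same library lowest. Over the 11 membrane and junction genes the log2 differences ran from −0.19 for Mag to 0.21 for Mobp, with 4 higher and 7 lower.

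Regulators and enzymes of the myelinating stage gave no difference past the threshold either. Myrf, the factor that starts and maintains myelin gene transcription, measured 12.7, 17.6 and 17.1 FPKM (wild-type replicates 1 to 3) against 9.87, 18.3 and 17.6 FPKM (Tet1-deficient replicates 1 to 3). As with Sox10 and Mag, both replicates 1 were below the other 4 libraries (log2 difference −0.08, 95% interval −0.66 to 0.50). Nkx6-2, a homeobox factor of myelinating cells, ranged over 2.98 to 6.53 FPKM and was likewise lowest in both replicates 1 (log2 difference −0.0019). Trf, which encodes the iron carrier transferrin, measured 83.3, 89.05 and 89.03 FPKM (wild-type replicates 1 to 3) against 52.4, 87.9 and 83.6 FPKM (Tet1-deficient replicates 1 to 3). A single library, Tet1-deficient replicate 1, stood below the rest, and the log2 difference of −0.25 (95% interval −0.72 to 0.21) was −0.022 without it. Fa2h, which hydroxylates the fatty acids of myelin galactolipids, ranged over 12.1 to 19.8 FPKM (log2 difference −0.16), which was 0.056 without that library.

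Ugt8a and Aspa ran the other way over the libraries. Ugt8a, which makes galactosylceramide, the main glycolipid of myelin, measured 30.6, 19.9 and 18.7 FPKM (wild-type replicates 1 to 3) against 25.5, 21.4 and 19.4 FPKM (Tet1-deficient replicates 1 to 3). Aspa, the oligodendrocyte enzyme that releases acetate from N-acetylaspartate for lipid synthesis, measured 12.4, 6.13 and 5.71 FPKM (wild-type replicates 1 to 3) against 9.696, 5.59 and 6.901 FPKM (Tet1-deficient replicates 1 to 3). For both genes replicate 1 of each genotype was above the other 4 libraries, and the differences were −0.03 (95% interval −0.51 to 0.44) and −0.07 (95% interval −0.78 to 0.64). Qdpr, which regenerates tetrahydrobiopterin, ranged over 106 to 134 FPKM, Ndrg1, a stress-responsive protein of mature oligodendrocytes, over 34.7 to 49.1 FPKM, Gpr37, a receptor that restrains differentiation, over 22.3 to 29.6 FPKM, and Plekhb1, a membrane-binding protein, over 145 to 173 FPKM. Plekhb1 had the narrowest interval, −0.28 to 0.18 around −0.05. Lingo1 ranged over 94.9 to 179 FPKM, with both replicates 1 lowest (log2 difference 0.13, 95% interval −0.48 to 0.74).

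**Figure D2:**
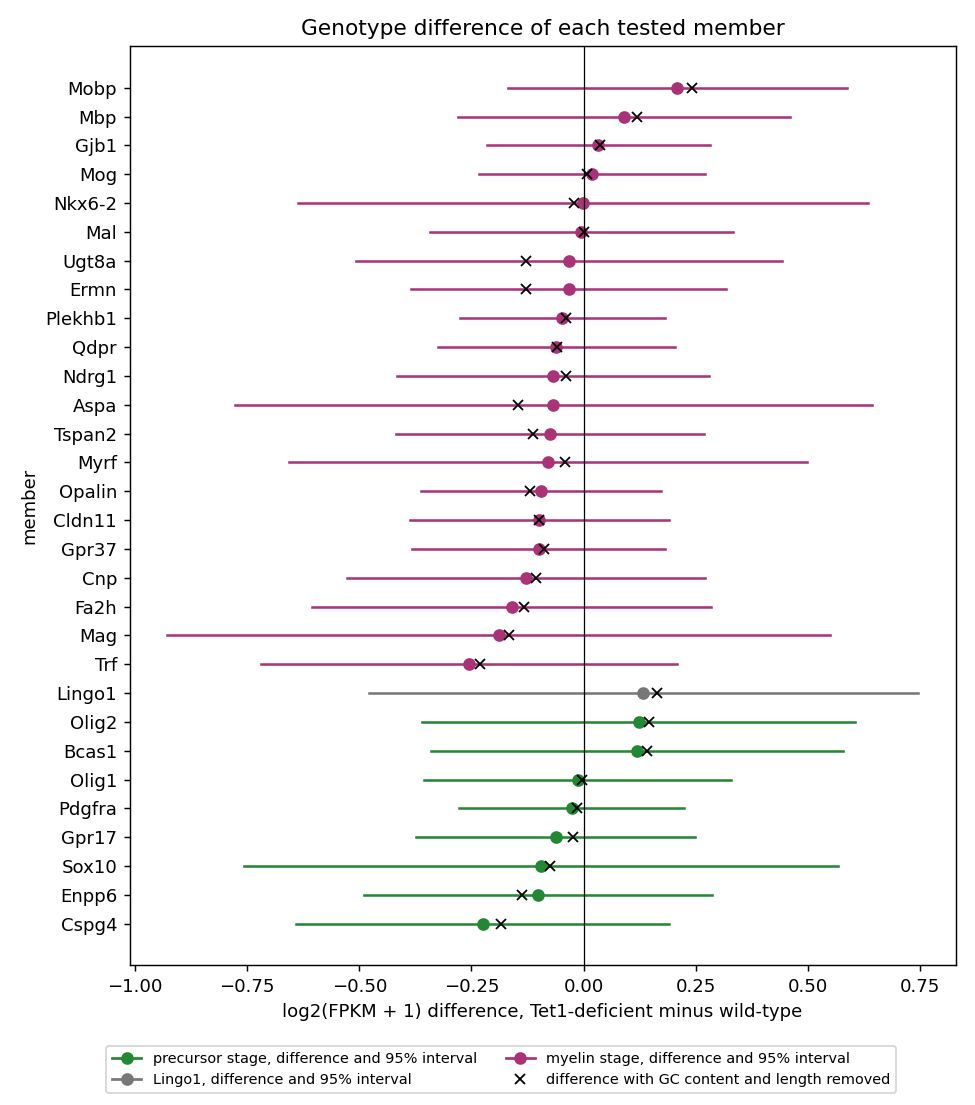
Difference in log2(FPKM + 1), Tet1-deficient minus wild-type, for the 30 tested members (points) with the 95% interval of limma (bars), grouped as precursor-stage genes, Lingo1 and myelin-stage genes. Crosses give the difference after each library's trend on transcript GC content and length was removed. Every bar crosses 0, and the bars of Mag, Aspa and Sox10 are among the widest.

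Over the 21 myelin-stage genes the median log2 difference was −0.068, with 4 higher and 17 lower, and over the 30 tested members 23 were lower, where 47.1% of all genes tested were. This lean was reversed on leaving out 1 library, Tet1-deficient replicate 1. On leaving out any of the others, from 18 (without wild-type replicate 1) to 26 (without Tet1-deficient replicate 3) of 30 members were lower. Tet1-deficient replicate 3 had the highest value of the 6 libraries for 11 of 31 members. Tet1-deficient replicate 1 had the lowest value of the 6 libraries for 21 of 31 members (13 of 21 myelin-stage and 8 of 9 precursor-stage genes). Without it 10 of 30 members were lower, the myelin-stage median was 0.046 and the precursor-stage median 0.09. In the 4 libraries left without either replicate 1, a subset chosen with the data in view, 10 of 30 were lower, the medians were 0.047 and 0.113, and 0 members passed the threshold. Bcas1 and Mal had unadjusted limma p-values of 0.0145 and 0.0365 there (log2 differences 0.21 and 0.17, adjusted p 0.999 each), where 3.86% of all genes tested were under 0.05. When the model held a term for that pair of libraries, Mobp was the only member with an unadjusted p under 0.05, as 6.77% of all genes were. Its limma values there were an unadjusted p of 0.0184, an adjusted p of 0.699 and a log2 difference of 0.21. With estimated library weights 0 members passed. There 25 of 30 were higher and 5 lower, where 48.1% of all genes tested were lower. Unadjusted, 6 (Bcas1, Cspg4, Gjb1, Mal, Mbp and Mobp) had a limma p under 0.05, among 9.83% of all genes tested. The weights were 0.178, 2.99 and 1.57 (wild-type replicates 1 to 3) and 0.176, 0.988 and 6.89 (Tet1-deficient replicates 1 to 3). The Tet1-deficient mean of that fit thus rested mostly on replicate 3.

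The order of the libraries differed from member to member. Both replicates 1 were the 2 lowest libraries for 14 of 30 tested members (46.7%, against 35.0% of all genes tested) and the 2 highest for 4 (13.3%, against 28.5%). The 14 included Mag, Sox10, Myrf, Nkx6-2, Olig1, Olig2, Mbp, Cnp and Lingo1, and the 4 were Aspa, Ugt8a, Ermn and Tspan2. A ratio of 2 genes within a library does not depend on the scaling of that library. The ratio of Aspa to Mag FPKM was 0.224, 0.0682 and 0.0689 (wild-type) against 0.238, 0.069 and 0.0823 (Tet1-deficient), and its highest value was 3.49 times its lowest, although both genes belong to the myelinating cell. By contrast the ratio of Mag to Sox10 was 3.98, 4.4 and 3.62 (wild-type) against 3.55, 3.99 and 3.72 (Tet1-deficient), and that of the precursor gene Pdgfra to the myelin gene Mog was 0.3, 0.279 and 0.322 (wild-type) against 0.285, 0.317 and 0.27 (Tet1-deficient). The last 2 ratios varied over the libraries by 1.24 and 1.19 times. These pairs were chosen after their values were seen.

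**Figure D3:**
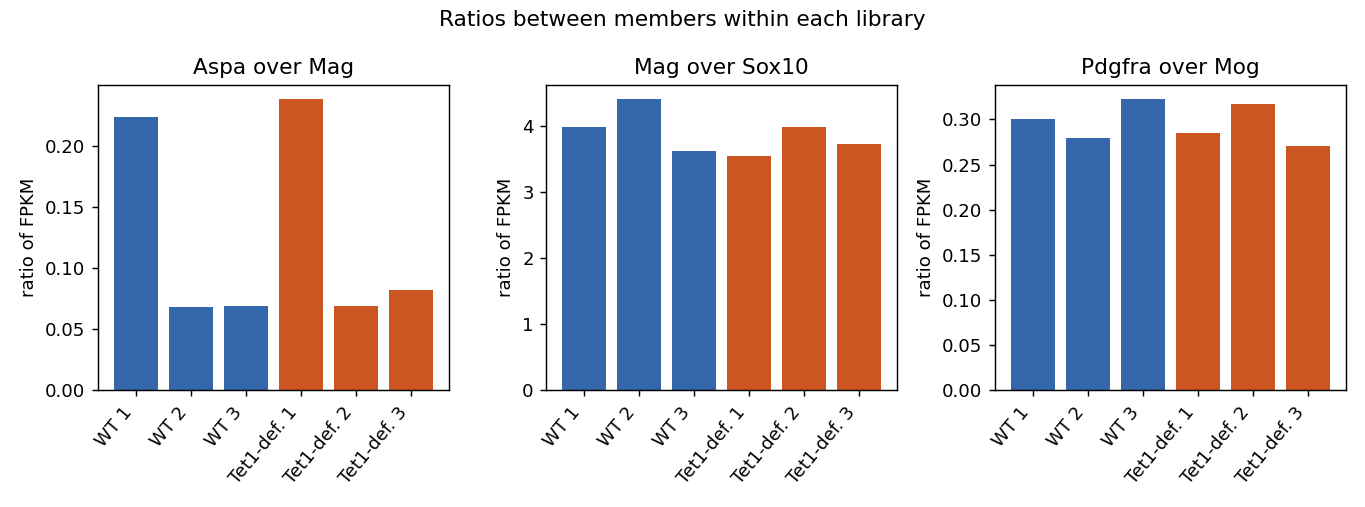
Ratio of FPKM between pairs of members within each library, 1 bar per library, blue for wild-type (WT) and orange for Tet1-deficient. Aspa over Mag is 0.224 and 0.238 in replicate 1 of the genotypes and at most 0.0823 elsewhere, while Mag over Sox10 and Pdgfra over Mog stay within 1.24 and 1.19 times.

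In medians over the members of low and of high GC content, this order moved with the GC content of the transcripts shown at the start. Deviations are given as the log2 value of a library minus the gene's mean over the 6 libraries. The deviations of a gene thus cancel out over the libraries, and a trend down in some libraries entails a trend up among the others. In wild-type replicate 1 the 5 tested members under 45% GC (Enpp6, Ermn, Tspan2, Ugt8a and Aspa) had a median deviation of 0.38 and the 11 members at 55% or more (Cspg4, Sox10, Olig1, Olig2, Lingo1, Myrf, Nkx6-2, Mag, Cnp, Gjb1 and Fa2h) one of −0.18. In Tet1-deficient replicate 1 these medians were 0.19 and −0.41. Over all genes tested of the same GC classes they were 0.18 and −0.20 in wild-type replicate 1, and 0.26 and −0.21 in Tet1-deficient replicate 1. The 14 members at 45 to 55% GC had a median deviation of 0.04 in wild-type replicate 1 and −0.20 in Tet1-deficient replicate 1. All genes tested of that class had −0.01 and −0.03. The other 4 libraries had the opposite order, from −0.06, −0.22, −0.13 and −0.03 for the members of low GC content to 0.14, 0.16, 0.18 and 0.16 for those of high GC content (wild-type replicates 2 and 3, then Tet1-deficient replicates 2 and 3).

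Across the 30 tested members, which share libraries and are not independent, Pearson's r between GC content and deviation was −0.75 in wild-type replicate 1 and −0.79 in Tet1-deficient replicate 1, and 0.66, 0.77, 0.76 and 0.55 in the others. Across 11811 tested genes with a matched transcript it was −0.49 and −0.61 in the replicates 1 and 0.34 to 0.47 in the others. Single members did not all follow. Of those of middle GC content, Trf, at 52.5% GC, deviated by −0.59 in Tet1-deficient replicate 1 and by 0.06 in wild-type replicate 1. Mobp, at 53.3% GC, deviated by −0.08 and −0.41 in the same libraries. Of those of high GC content, Gjb1, at 56.7% GC, deviated by 0.074 in wild-type replicate 1. Of those of low GC content, Enpp6, at 42.3% GC, deviated by −0.163 in Tet1-deficient replicate 1.

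**Figure D4:**
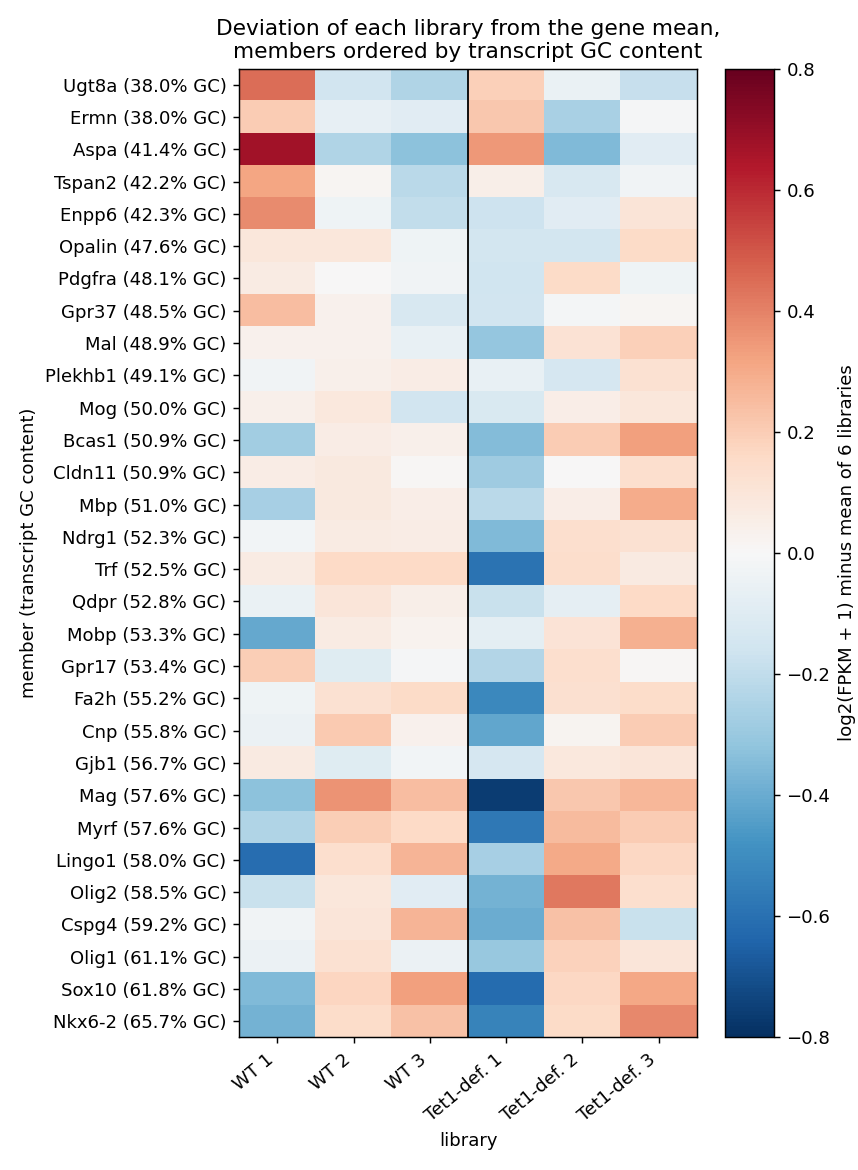
Deviation of each library from the gene mean, in log2(FPKM + 1), for the 30 tested members, ordered from low transcript GC content at the top to high at the bottom. Columns are libraries, wild-type (WT) left of the line and Tet1-deficient right of it. Replicate 1 of each genotype is red in rows such as Ugt8a and Aspa at the top and blue in rows such as Sox10 and Nkx6-2 at the bottom, and the other 4 columns run the other way.

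**Figure D5:**
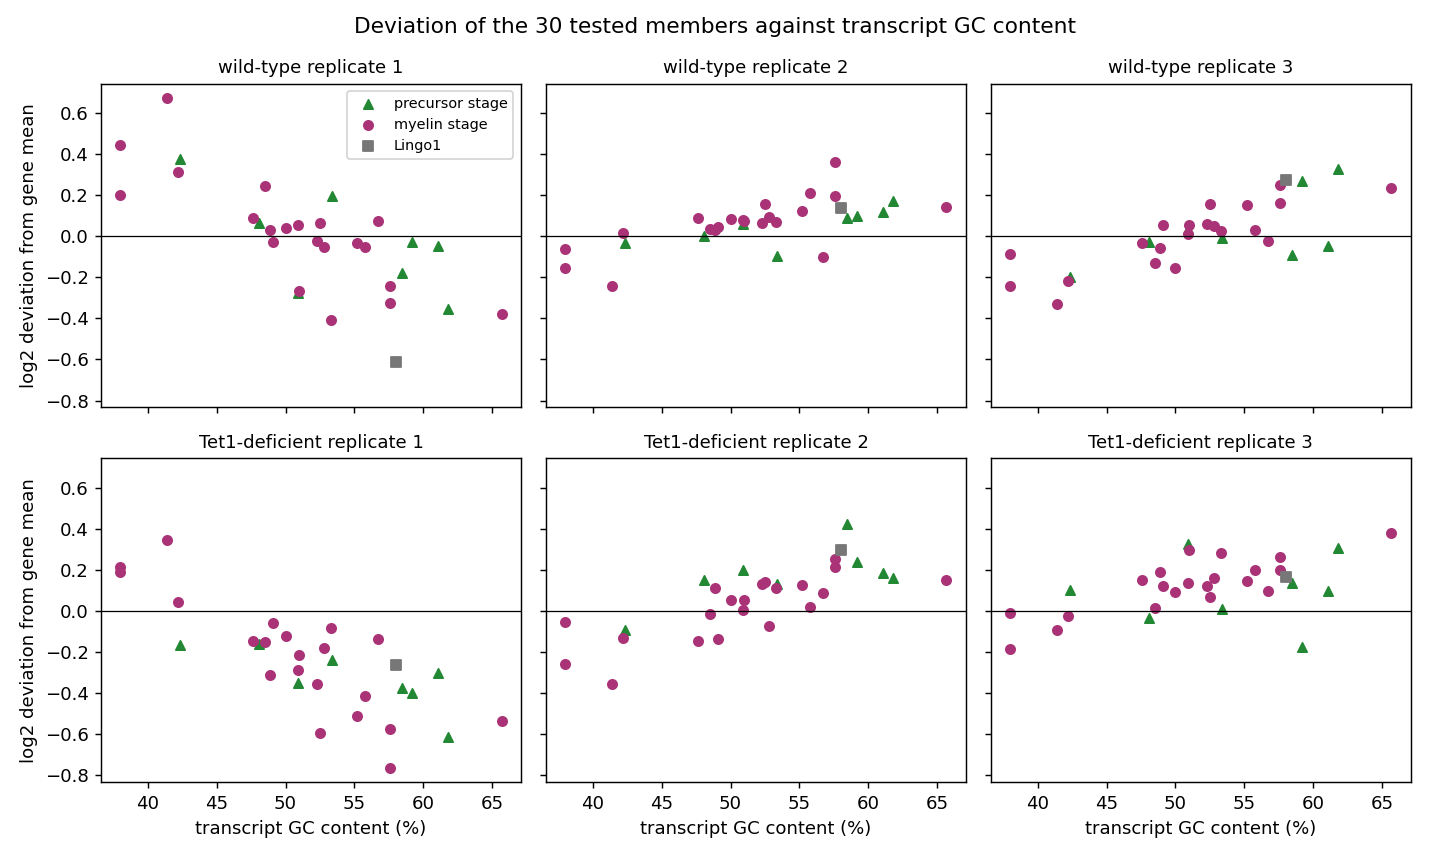
Deviation from the gene mean (log2) against transcript GC content (%) in each library, 1 point per tested member, triangles for precursor-stage genes, circles for myelin-stage genes and a square for Lingo1. The points slope down in replicate 1 of both genotypes (Pearson's r −0.75 and −0.79) and up in the other 4 libraries (0.55 to 0.77). As the deviations of a gene cancel out over the libraries, these slopes are not independent of each other.

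When each library's trend on GC content and transcript length over all genes was removed, a step chosen after the data were seen, the SD within genotypes (log2) was smaller for 25 of 30 members (83.3%, against 70.3% of all genes). It went from 0.485 to 0.341 for Mag, from 0.431 to 0.24 for Sox10, from 0.412 to 0.188 for Nkx6-2, from 0.464 to 0.272 for Aspa and from 0.297 to 0.151 for Ugt8a. The median over the members went from 0.226 to 0.174, and Pearson's r between GC content and deviation over the members then lay between −0.25 and 0.42. The trend was fitted to these same values, members included, so a smaller spread and a weaker correlation follow in part from the step itself. For Gpr17, Opalin, Gjb1, Mal and Plekhb1 the SD was larger after removal. Of the members 0 passed the threshold in that fit and 0 had an unadjusted p under 0.05 (2.39% of genes), with Mobp nearest at a limma p of 0.079 (log2 difference 0.24). With all libraries kept, 22 of 30 members were lower in that fit, where 46.5% of all genes were. The median differences were −0.089 for myelin-stage and −0.019 for precursor-stage genes. Whether sample handling, library preparation or sequencing differed for the replicates 1 was not tested.

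Wider lists of the same lineage gave the same count of calls. Of 48 further myelin and oligodendrocyte genes 47 were tested and 0 passed the threshold. Of these 10 were higher and 37 lower, where 47.1% of all genes tested were lower, and the median log2 difference was −0.068. The smallest unadjusted p belonged to Nipal4, a magnesium transporter family gene, and Tmem63a, an ion channel gene. Nipal4 measured 1.09, 0.991 and 1.39 FPKM (wild-type replicates 1 to 3) against 0.836, 0.765 and 0.951 FPKM (Tet1-deficient replicates 1 to 3), a log2 difference of −0.22 (limma, unadjusted p 0.0823), and its groups did not overlap. Tmem63a measured 8.55, 7.85 and 7.98 FPKM (wild-type replicates 1 to 3) against 5.76, 6.97 and 8.01 FPKM (Tet1-deficient replicates 1 to 3), a log2 difference of −0.21 (limma, unadjusted p 0.122). Of 21 further precursor genes 20 were tested and 0 passed, with 6 higher and 14 lower and a median of −0.066. As with the members, Tet1-deficient replicate 1 was the lowest library of both lists by median deviation. It had −0.201 for the myelin list, against −0.018 to 0.066 in the other libraries. For the precursor list it had −0.181, against −0.05 to 0.079. Bmp4, a growth factor of committed precursors, measured 2.15, 2.25 and 2.58 FPKM (wild-type replicates 1 to 3) against 1.61, 1.97 and 1.94 FPKM (Tet1-deficient replicates 1 to 3), a log2 difference of −0.23 (limma, unadjusted p 0.0605). Its groups did not overlap, lower in Tet1-deficient hippocampus, which 2.21% of all genes tested did in that direction, and its adjusted p was 1.

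Gene annotation limits some of these values. On mm10, 14 of 31 members overlap an annotated gene on the opposite strand, among them Cnp with Dnajc7, Gpr17 with Lims2, Nkx6-2 with Inpp5a, Ermn with Galnt5 and Nkx2-2 with the antisense transcript Nkx2-2os. Mobp, Trf and Pdgfra overlap an annotated gene on their own strand. No source used here gives the strand setting of the counting, so reads of a member and of its partner may have been counted together.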

How the data were processed

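Per the design text there were 3 libraries of whole hippocampus per genotype, and groups follow the genotype labels. The authors deposited 1 table of gene-level FPKM values for the 6 libraries. TopHat2 (2.0.9), Cufflinks (2.1.1) and the mm10 build are named in the submitters' processing notes, while annotation, strand setting and filters are not given in the sources. Among 362 genes under 0.03 FPKM in both replicates 1, at most 5 shared a ratio to 3 decimals, so whole reads could not be recovered and depth is unknown.

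From these values log2(FPKM + 1) was computed for the 12533 genes that averaged 1 FPKM or more and fitted with limma 3.58.1 (R 4.3.3), using genotype alone and an intensity trend, two-sided, Benjamini-Hochberg adjusted over those genes, threshold 0.05. The fit was tested on simulated data. GC content and length came from GENCODE M21, and their trends were natural splines with 5 degrees of freedom. The members and lists were chosen with earlier results of these data known. All 31 members are named; values in every library are given for a fixed set of 12, for any member with separate groups or an unadjusted p under 0.05, and, chosen after their values were seen, for Mobp, Trf, Ugt8a and Aspa. Of the wider lists the 2 tested genes with the smallest p were to be named; 1 of these, and a marker of another cell type, are not reported here. Replicates are separate mice by the design text. The p-values rest on the spread between libraries of a genotype, which includes the trend on GC content as well as differences between mice. Alternatives are given in the closing section.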

Additional observations from a re-analysis of the deposited data

How the results depend on the processing

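Among the 30 tested members there were 0 calls under each alternative run: quantile normalization, median-of-ratios scaling, 0.1 FPKM as the pseudocount, all genes above 0 kept (the single one that also fitted Nkx2-2), no intensity trend, library weights, a threshold of 0.1, leaving out each library, the 4 libraries alone, the library pair as a term, or GC content and length removed (the last 3 chosen after the data were seen). Over all genes the count of 4 calls became 59 with library weights, 12 in the 4 libraries, 8 with the pair as a term, 2 with GC content and length removed (fewer genes tested), and 0 to 6 when 1 library was left out (0 on leaving out Tet1-deficient replicate 2 or wild-type replicate 3, 1 on leaving out Tet1-deficient replicate 3 or wild-type replicate 2, 6 on leaving out wild-type replicate 1); the cause was not tested. The myelin-stage median of −0.068 became 0.049 with library weights and 0.047 in the 4 libraries, and with 1 library left out it lay between −0.134 (without Tet1-deficient replicate 3) and 0.046 (without Tet1-deficient replicate 1). The precursor-stage median of −0.044 became 0.072 with library weights and 0.113 in the 4 libraries, and with 1 library left out it lay between −0.109 (without Tet1-deficient replicate 2) and 0.09 (without Tet1-deficient replicate 1).

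Single members, 0 of them called, changed sign, and the cause was not tested. Signs differed for 18 of 30 members with library weights, at 0.067 for Sox10, 0.044 for Olig1, 0.077 for Gpr17, 0.15 for Enpp6, 0.022 for Myrf, 0.18 for Nkx6-2, 0.023 for Cnp, 0.053 for Cldn11, 0.027 for Ermn, 0.061 for Opalin, 0.17 for Mal, 0.014 for Tspan2, 0.002 for Fa2h, 0.12 for Aspa, 0.049 for Qdpr, 0.052 for Ndrg1, 0.021 for Gpr37 and 0.040 for Plekhb1. They differed for 13 in the 4 libraries, at 0.072 for Pdgfra, 0.11 for Olig1, 0.12 for Gpr17, 0.12 for Enpp6, 0.048 for Myrf, 0.076 for Nkx6-2, 0.024 for Cldn11, 0.17 for Mal, 0.023 for Tspan2, 0.079 for Ugt8a, 0.061 for Aspa, 0.064 for Ndrg1 and 0.047 for Gpr37. They differed for 3 with median-of-ratios scaling, at 0.007 for Olig1, 0.014 for Nkx6-2 and 0.015 for Mal, for 2 with quantile normalization, at 0.018 for Nkx6-2 and −0.35 for Mbp, and for 1 with GC content and length removed, at 0.001 for Mal. When 1 library was left out, the log2 difference of members that changed sign ran from −0.11 to 0.046 for Pdgfra, −0.30 to 0.19 for Sox10, −0.11 to 0.14 for Olig1, −0.059 to 0.34 for Olig2, −0.14 to 0.041 for Gpr17, −0.013 to 0.32 for Bcas1, −0.22 to 0.063 for Enpp6, −0.14 to 0.30 for Lingo1, −0.23 to 0.19 for Myrf, −0.19 to 0.27 for Nkx6-2, −0.036 to 0.22 for Mbp, −0.053 to 0.082 for Mog, −0.40 to 0.14 for Mag, −0.26 to 0.046 for Cnp, −0.19 to 0.020 for Cldn11, −0.15 to 0.087 for Ermn, −0.010 to 0.11 for Gjb1, −0.10 to 0.15 for Mal, −0.20 to 0.064 for Tspan2, −0.16 to 0.18 for Ugt8a, −0.27 to 0.056 for Fa2h, −0.26 to 0.25 for Aspa, −0.15 to 0.013 for Qdpr, −0.15 to 0.093 for Ndrg1 and −0.12 to 0.008 for Plekhb1. No paired analysis was possible because the replicate numbers only name the libraries in accession order and pair none. Read depth is unknown, so no limit from counting error is given. The precision rests on 3 mice per genotype and on the spread between their libraries, which includes the trend on GC content.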
